A study of Mus musculus with 40 samples.

Results

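Brown adipose tissue (BAT) and epididymal white adipose tissue (eWAT) were compared without cold stimulation. The comparison takes in all genes of 10 of the 40 libraries of the series, 5 of thermoneutral BAT and 5 of thermoneutral eWAT, chosen by their labels and not by any measured value. The mice were adult wild-type C57BL/6 animals kept on a standard diet at 22 °C, which then spent 24 h at 30 °C, the thermoneutral exposure, or at 4 °C, the cold exposure. No allele, drug or transgene separates the groups, and 1 depot is set against another under the same exposure. A further 10 libraries, 5 of cold BAT and 5 of cold eWAT, were used for 1 question only, whether the depot difference of a gene is the same in the cold. The labels give no sex and do not say whether tissues were pooled or whether libraries with equal numbers came from 1 mouse, so p-values measure the spread between these libraries. RNA was read by sequencing of polyadenylated transcripts, and the values are expected counts per gene symbol.

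Brown and white adipocytes both store triglyceride. Brown adipocytes hold many small droplets and dense mitochondria, and their uncoupling protein 1 lets protons return across the inner mitochondrial membrane without making ATP, so that the oxidation of fuel yields heat. White adipocytes hold 1 large droplet, release fatty acids between meals and secrete hormones such as leptin. The depots also come from different parts of the embryo. Interscapular brown fat derives from paraxial mesoderm shared with muscle, whereas epididymal fat is a visceral depot covered by mesothelium and lying against the epididymis. At thermoneutrality the sympathetic drive to brown fat is low, so the depots are compared at a time when thermogenesis is not called for. The exposure lasted 24 h after housing at 22 °C. Depot identity and what remained of the earlier state therefore cannot be told apart.

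Most measured genes differed between the depots. Of 17148 genes tested with edgeR, 11692 (68.2%) had a Benjamini-Hochberg adjusted p under 0.05. In BAT, 5494 genes (32%) were higher and 6198 (36.1%) lower than in eWAT, and with a difference of at least 2-fold 2280 (13.3%) were higher and 4067 (23.7%) lower. For 9301 genes (54.2%) no BAT library overlapped any eWAT library. These shares are the background for every list below, whatever the function of its genes. Differences are log2 values, BAT minus eWAT, with their standard error (SE), and levels are CPM, counts set relative to the total of a library, on library sizes scaled by the trimmed mean of M-values (TMM). The median difference over all genes was -0.04.

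Total counts per library lay between 51908607 and 84697511. A larger part of the BAT libraries was taken by a few genes. Transcripts of the mitochondrial genome made up 26.0 ± 3.33% of the counts in BAT and 5.15 ± 0.953% in eWAT (SD, n = 5 each), and the 100 most abundant genes 57.6 ± 1.86% in BAT and 31.9 ± 2.3% in eWAT. The mitochondrial shares take in only symbols that begin with mt-. Counts of Gm10925, Gm28437, Gm28661 and Gm29216, of near-identical sequence to that genome, are not in them. The TMM factors were 0.674 to 0.745 for BAT and 1.306 to 1.495 for eWAT. With plain library totals in place of TMM, the median over all genes fell to -1.03, a shift of -0.987, and 1470 genes were higher and 13213 lower, so that higher genes made up 10% of the calls, against 47% with TMM. Differences within about 1 log2 unit of 0 therefore rest on the scaling, and each list whose median changes sign is given with both values. The correlation of log2 CPM across genes, which are not independent replicates, was 0.972 to 0.988 between BAT libraries, 0.915 to 0.986 between eWAT libraries and 0.763 to 0.843 between the depots.

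Markers of neighbouring tissue were uneven between libraries. The 15 skeletal muscle markers summed to 1294, 1083, 6636, 269 and 4232 CPM in BAT libraries 1 to 5, against 42.8, 51.5, 25.6, 26.1 and 29.3 CPM in eWAT libraries 1 to 5. BAT libraries 3 and 5 stood highest and BAT library 4 lowest, and no eWAT library reached any of them. The 16 tested markers of motile cilia summed to 0.632 to 1.16 CPM in BAT, against 329, 158, 472, 671 and 233 CPM in eWAT. The 10 markers of duct epithelium summed to 0.347 to 1.59 CPM in BAT, against 379.6, 28.6, 363, 754 and 316 CPM in eWAT, where library 2 was lowest. Germ cell and epididymal markers, 5 of which passed the filter on low counts, summed to 0.079 to 0.886 CPM in BAT, against 3.89, 593, 705, 39.8 and 20 CPM in eWAT, so that eWAT libraries 2 and 3 stood apart. The lists of cilia, duct and seminal vesicle genes were written after their leading genes had been seen, so their counts of 16 of 16 and 10 of 10 lower in BAT are descriptions.

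Hepatocyte genes summed to 142, 71.8, 55.4, 122 and 82.6 CPM in BAT, against 1799, 4657, 1046, 991 and 2092 CPM in eWAT, with eWAT library 2 highest. Cyp2e1, the most abundant of them, is also expressed by fat, and had 1759, 1830, 945, 854 and 2085 CPM in eWAT libraries 1 to 5. It made up most of the sum in eWAT libraries 1, 3, 4 and 5, but not in library 2. The only tested marker of seminal vesicle was lower in BAT, and the list summed to at most 0.307 CPM in BAT, against 1.57, 1186, 7.42, 0.477 and 95.6 CPM in eWAT libraries 1 to 5. The part of neighbouring tissue in the differences below was not tested. Counts were repeated without BAT libraries 3 and 5, without eWAT libraries 2 and 3 and without these 4. The BAT libraries kept still held muscle markers, and the eWAT libraries kept still held cilia and duct markers. Of the eWAT libraries left out, library 2 was the poorest in duct markers, so these repeats cannot decide that part. Without the 4 libraries 4945 genes were higher and 5754 lower in BAT. Lists whose counts then change by more than 1.5 times are given with those counts.

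**Figure D1:**
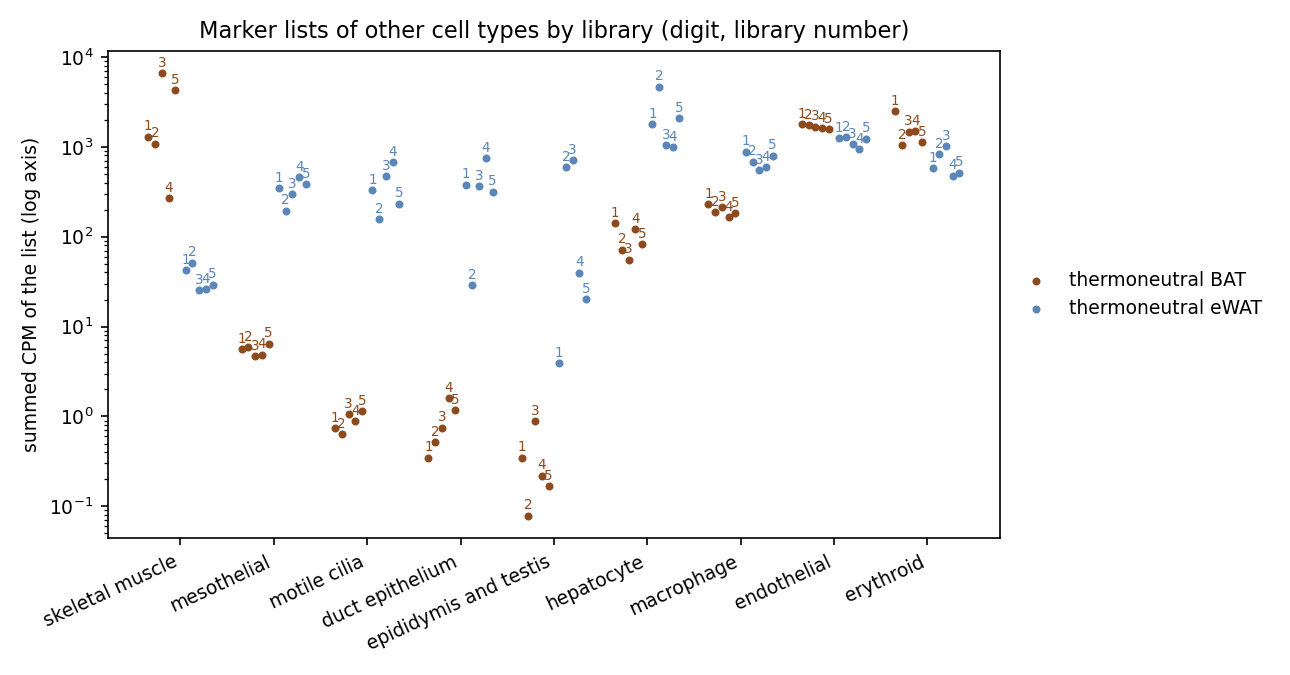
Summed CPM (log axis) of 9 marker lists of other cell types, 1 point for each thermoneutral BAT and eWAT library with the library number beside it. Skeletal muscle markers span 269 to 6636 CPM in BAT and 25.6 to 51.5 CPM in eWAT, while mesothelial, ciliated, duct and germ cell markers are near 0 in BAT and uneven in eWAT.

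Genes of the brown fat programme were higher in BAT after the 24 h at 30 °C. Of 28 listed genes 27 were tested, 24 were higher and 2 lower in BAT, and the median difference was 3.39. Ucp1, the uncoupling protein of brown fat, had 569.8, 1268, 1037, 1081 and 541 CPM in BAT libraries 1 to 5, against 0.0536, 0.405, 0.013, 0.872 and 0 CPM in eWAT libraries 1 to 5. All eWAT libraries lay below 1 CPM, far under the lowest BAT library, with eWAT library 5 at 0, and the difference was 11.73 ± 0.95, adjusted p = 2.3e-06. In a whole tissue, fewer cells of a type and less RNA in each cell cannot be told apart. Cidea, a lipid droplet protein that in mice is abundant in brown adipocytes, had 1909, 1823, 2135, 1747 and 2070.4 CPM in BAT, against 2.37, 2.13, 1.58, 4.02 and 0.928 CPM in eWAT. The BAT libraries lay within a narrow range far above every eWAT library (9.78 ± 0.42, adjusted p = 2.17e-08).

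Heart and muscle type subunits of cytochrome c oxidase marked BAT as sharply. Cox8b had 552, 524, 557, 498 and 621 CPM in BAT, against 1.72, 1.98, 0.796, 1.65 and 1.12 CPM in eWAT (8.57 ± 0.27, adjusted p = 2.8e-09). Cox7a1 averaged 247 ± 34.9 CPM in BAT and 1.29 ± 0.469 CPM in eWAT (SD, n = 5 each), a difference of 7.58 ± 0.27. Neither gene overlapped between the depots. Among BAT libraries Cox7a1 was highest in 3 and 5, as the muscle markers were. Among regulators, the transcription cofactor Prdm16 had 48.3, 64.6, 32.4, 32.1 and 37.6 CPM in BAT, against 9.52, 5.09, 7.93, 9.38 and 7.42 CPM in eWAT (2.45 ± 0.24, adjusted p = 7.66e-06), and every BAT library exceeded every eWAT library. Ppargc1a, which encodes the coactivator PGC-1α that drives mitochondrial gene expression, differed by 1.74 ± 0.29, adjusted p = 0.000367, and the orphan nuclear receptors Esrra and Esrrg by 2.32 ± 0.09 and 2.52 ± 0.53. Dio2, the deiodinase that makes active thyroid hormone inside the cell, differed by 3.94 ± 0.52, adjusted p = 7.29e-05. Letmd1, a mitochondrial protein needed for brown fat function in mice, differed by 4.10 ± 0.10, and Pank1, a kinase of coenzyme A synthesis, by 5.32 ± 0.21.

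Members of the list that went against it were few. Adrb3, the β3-adrenergic receptor through which noradrenaline acts on adipocytes, was lower in BAT, with 204, 163, 173, 369.7 and 114 CPM in BAT, against 447, 499, 258, 308 and 473 CPM in eWAT, a difference of -0.96 ± 0.31, adjusted p = 0.0183. Without BAT libraries 3 and 5 it no longer passed the test (-0.68 ± 0.33, adjusted p = 0.107). The zinc finger factor Zfp516 differed by -0.39 ± 0.09. Gk, glycerol kinase, which lets brown fat reuse glycerol, was not called at -0.53 ± 0.45, adjusted p = 0.32, but was lower without eWAT libraries 2 and 3 (-0.85 ± 0.28, adjusted p = 0.0249) and without library 2 alone (-0.76 ± 0.26, adjusted p = 0.0249). It had 20.1, 34.2, 28.4, 31.7 and 24.1 CPM in BAT, against 39.5, 8.17, 39.4, 79.7 and 32.5 CPM in eWAT, and in eWAT it was lowest in library 2 and highest in library 4, as the duct markers were. The same order of the extremes held in eWAT for Esrrg and Ppargc1a, and the part of duct tissue was not tested. Without the 4 libraries 1 gene of the list was lower.

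**Figure D2:**
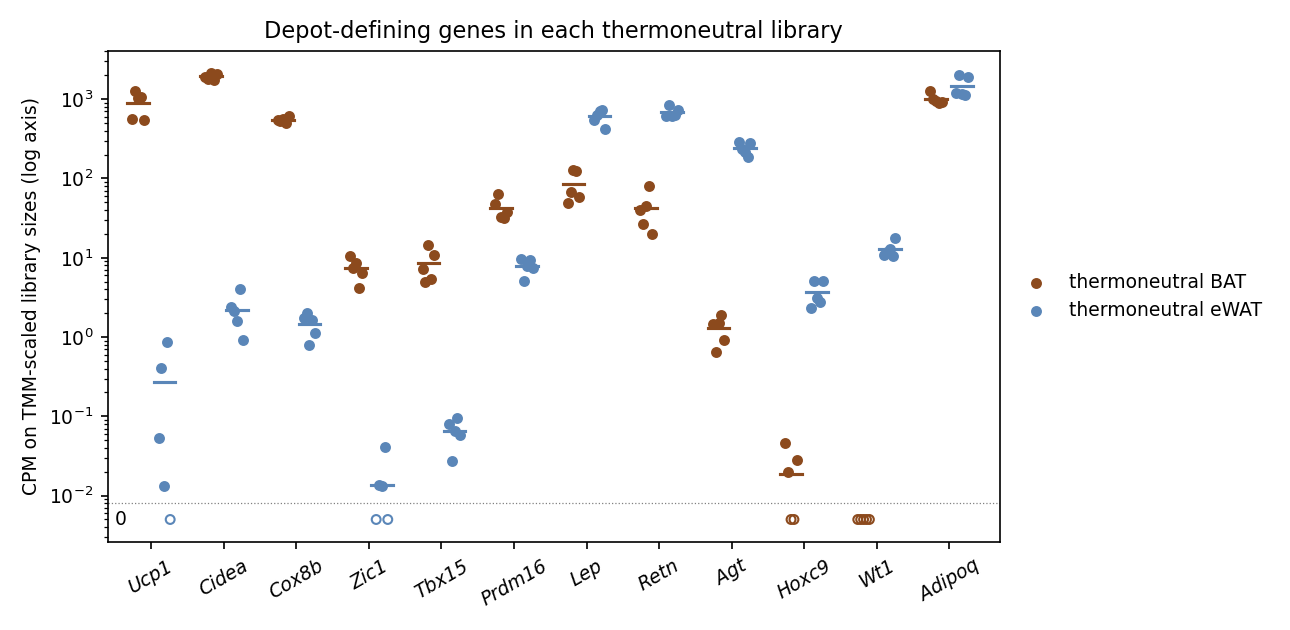
CPM on TMM-scaled library sizes (log axis, with 0 drawn below the dotted line) for 12 genes named in the text, 1 point for each thermoneutral BAT and eWAT library and a bar for the mean. Brown fat genes stand high in BAT and white fat genes high in eWAT without overlap, whereas Adipoq spans 891 to 1264 CPM in BAT and 1134 to 2005 CPM in eWAT.

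White fat genes were lower in BAT in nearly the whole list. Of 19 genes tested 18 were lower and 0 higher, with a median of -3.71, and only Itih5 was not called (-0.32 ± 0.16, adjusted p = 0.0977). Lep, which encodes the satiety hormone leptin, had 49.6, 67.6, 129, 123 and 58.4 CPM in BAT, against 554, 628, 702, 735 and 422 CPM in eWAT. The highest BAT library stayed well under the lowest eWAT library (-2.83 ± 0.30, adjusted p = 1.63e-05). Retn, the adipocyte hormone resistin, had 40, 26.6, 44.8, 81 and 19.7 CPM in BAT, against 613, 843, 607, 636 and 723 CPM in eWAT, again with no overlap (-4.01 ± 0.37, adjusted p = 5e-06). Agt, the precursor of the vasoactive angiotensin peptides, had 1.48, 0.652, 1.52, 1.88 and 0.93 CPM in BAT, against 288, 236, 214, 188 and 279.8 CPM in eWAT and differed by -7.54 ± 0.29, adjusted p = 1.18e-08. Nnmt, an enzyme that methylates nicotinamide, differed by -3.64 ± 0.11, adjusted p = 2.37e-09, and the nuclear corepressor Nrip1, which in mouse fat restrains oxidative genes, by -2.51 ± 0.16.

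Secreted factors were on the whole lower in BAT. Of 32 tested genes of this list 22 were lower and 8 higher, with a median of -1.92. Igf1, a growth factor of the insulin family, differed by -2.40 ± 0.18 and Bmp4, a bone morphogenetic protein that acts on adipocyte precursors, by -3.01 ± 0.26. Those that were higher in BAT included the vessel growth factors Vegfa (1.81 ± 0.15), Vegfb (1.42 ± 0.13) and Angpt1 (1.17 ± 0.27). Nerve-related factors were among them too, with Ntf3 at 1.52 ± 0.22 and Nrg4, a neuregulin secreted by brown fat in mice, at 1.78 ± 0.17. Nampt, an enzyme of NAD synthesis that is also secreted, had 312, 376, 316, 259.5 and 327 CPM in BAT, against 86.6, 90.6, 66.5, 69.9 and 91.2 CPM in eWAT (1.97 ± 0.13, adjusted p = 2.87e-07) and no overlap between the depots.

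The hormone adiponectin, shared by all fat, separated the depots weakly. Adipoq had 1264, 1013, 949, 891 and 924 CPM in BAT, against 1189, 2005, 1146, 1134 and 1882 CPM in eWAT, a difference of -0.54 ± 0.19, adjusted p = 0.0266, which was not called without eWAT library 2 (-0.40 ± 0.18, adjusted p = 0.0748) or in several other alternatives, and BAT library 1 lay above 3 of the 5 eWAT libraries. Fabp4, the fatty acid carrier of adipocytes, differed by 0.27 ± 0.11, adjusted p = 0.0472, a call that 14 alternatives lose or turn round. Pparg, the master regulator of adipocyte differentiation, differed by 0.88 ± 0.15, adjusted p = 0.000432 and by -0.11 with library totals. Of 14 general adipocyte markers 7 were higher and 4 lower, with a median of 0.17 that became -0.82 with library totals, and 2 were lower without the 4 libraries. The list summed to 24360 to 28470 CPM in BAT and 22580 to 29990 CPM in eWAT. The median of this list lay near that of all genes, while those of the brown and white fat lists lay on opposite sides of it.

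Transcription factors that mark position and lineage in the embryo differed strongly in both directions. Of 37 tested factors 14 were higher and 17 lower in BAT, and the median was 0.01. With library totals 11 were higher and 23 lower with a median of -0.97, and without the 4 libraries the median was -0.65. Zic1, a zinc finger factor of the dorsal somite and a marker of interscapular brown fat, had 10.6, 7.46, 8.54, 4.18 and 6.37 CPM in BAT, against 0, 0.0135, 0.013, 0.0409 and 0 CPM in eWAT. The eWAT libraries held between 0 and 0.0409 CPM, 2 of them no read at all, and the difference was 8.94 ± 0.60, adjusted p = 3.95e-07. The homeobox gene Lhx8 differed by 7.79 ± 0.71. Tbx15, a T-box factor of the skeleton and skin that takes part in brown fat differentiation in mice, had 7.2, 4.88, 14.6, 5.37 and 11 CPM in BAT, against 0.0804, 0.027, 0.0652, 0.0953 and 0.0587 CPM in eWAT (7.0 ± 0.45, adjusted p = 2.96e-07). Among BAT libraries it was highest in 3 and 5, as the muscle markers were, and without them the difference was 6.45 ± 0.39. Other factors that were higher in BAT included Tbx5 (4.67 ± 0.61), En1 (3.20 ± 0.47), Shox2 (3.11 ± 0.44), Ebf3 (1.88 ± 0.09) and Ebf2 (1.64 ± 0.21), the last a factor of the early B cell factor family that selects the brown fat programme. Zic4, the neighbour of Zic1, was at least 28-fold higher in BAT, where 1.55, 1.09, 0.954, 0.659 and 1.24 CPM were measured, and had 0 counts in eWAT.

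Factors of visceral mesoderm and mesothelium were among those lower in BAT. Wt1, the Wilms tumour factor of mesothelium and visceral fat precursors, had 0 counts in BAT, against 10.7, 11.9, 12.8, 10.6 and 17.9 CPM in eWAT, which makes it at least 189-fold lower. Tcf21, a factor of visceral mesenchyme, was at least 52-fold lower, Bnc1 at least 78.6-fold, Gata5 at least 17-fold and Isl1 at least 13.4-fold, all with 0 counts in BAT. Gata6, a zinc finger factor of endoderm and heart, had 1.97, 2.09, 1.94, 1.59 and 1.24 CPM in BAT, against 18.2, 19.4, 18.1, 15.3 and 23.1 CPM in eWAT (-3.41 ± 0.17, adjusted p = 4.48e-08). Osr1, a factor of intermediate mesoderm, differed by -4.77 ± 0.24, adjusted p = 5.84e-08, and Bnc2 by -3.31 ± 0.15, adjusted p = 2.18e-08. These sit beside a full set of mesothelial markers. All 13 mesothelial markers tested were lower in BAT, and their sum was 4.7 to 6.45 CPM in BAT and 194 to 459 CPM in eWAT, so adipocyte precursors and mesothelium cannot be told apart as the source of factors that both express.

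Hox genes record position along the body axis, low numbers toward the head and high numbers toward the tail, and differed by cluster and number. Of 39 listed Hox genes 28 were tested, 6 were higher and 16 lower in BAT, with a median of -1.21. Those higher in BAT included Hoxa2 (0.65 ± 0.23), Hoxa3 (1.03 ± 0.11), Hoxa4 (1.33 ± 0.23), Hoxa5 (1.75 ± 0.11) and Hoxb4 (0.61 ± 0.10). Hoxa5 had 32.2, 35, 38.6, 32.6 and 39.6 CPM in BAT, against 11.5, 8.33, 10.6, 11.4 and 10.9 CPM in eWAT without overlap (adjusted p = 1.83e-07). With library totals the median of the list was -2.20 and 1 gene was higher, and Hoxa2 and Hoxb4 stood below 0, so the direction of the smaller differences rests on the scaling.

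In the Hoxb cluster the difference was -0.61 ± 0.23 at Hoxb2, -1.05 ± 0.25 at Hoxb3, -1.79 ± 0.19 at Hoxb5, -2.26 ± 0.33 at Hoxb6, -1.90 ± 0.30 at Hoxb7, -2.66 ± 0.39 at Hoxb8 and -4.92 ± 0.61 at Hoxb9, all lower in BAT. The smallest of these differences was at Hoxb2 and the largest at Hoxb9. Hoxb9 had 0.278, 0.533, 0.58, 0.464 and 0.423 CPM in BAT, against 16.2, 1.9, 13.3, 26 and 12.1 CPM in eWAT. In eWAT each of these 7 genes was lowest in library 2 and highest in library 4, as the duct markers were, and the part of duct tissue in these differences was not tested. In eWAT library 2 Hoxb9 still exceeded every BAT library, whereas Hoxb2 and Hoxb3 overlapped between the depots. In the Hoxc cluster Hoxc4, Hoxc5 and Hoxc6 were not called (-0.44 ± 0.19, adjusted p = 0.0672, 0.06 ± 0.16, adjusted p = 0.769 and -0.39 ± 0.16, adjusted p = 0.054), whereas Hoxc8 and Hoxc9 were lower in BAT, at -3.15 ± 0.49, adjusted p = 0.00024, and -7.55 ± 0.58, adjusted p = 1.16e-06. Hoxc9 had 0.0463, 0.0197, 0, 0 and 0.0282 CPM in BAT, against 2.32, 5.06, 3.13, 2.78 and 5.17 CPM in eWAT, and Hoxc10 had 0 counts in BAT and was at least 5.58-fold lower. Hoxa10, with 1 count over the BAT libraries, was 112-fold lower, with a counting interval of 20.1 to 4430. In the Hoxd cluster all 5 tested genes were lower, with Hoxd3 at -4.76 ± 0.86 and Hoxd9 at -1.57 ± 0.25, and in eWAT both were lowest in library 2. Hoxc9 did not follow the duct markers, since its eWAT values were highest in libraries 2 and 5.

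**Figure D3:**
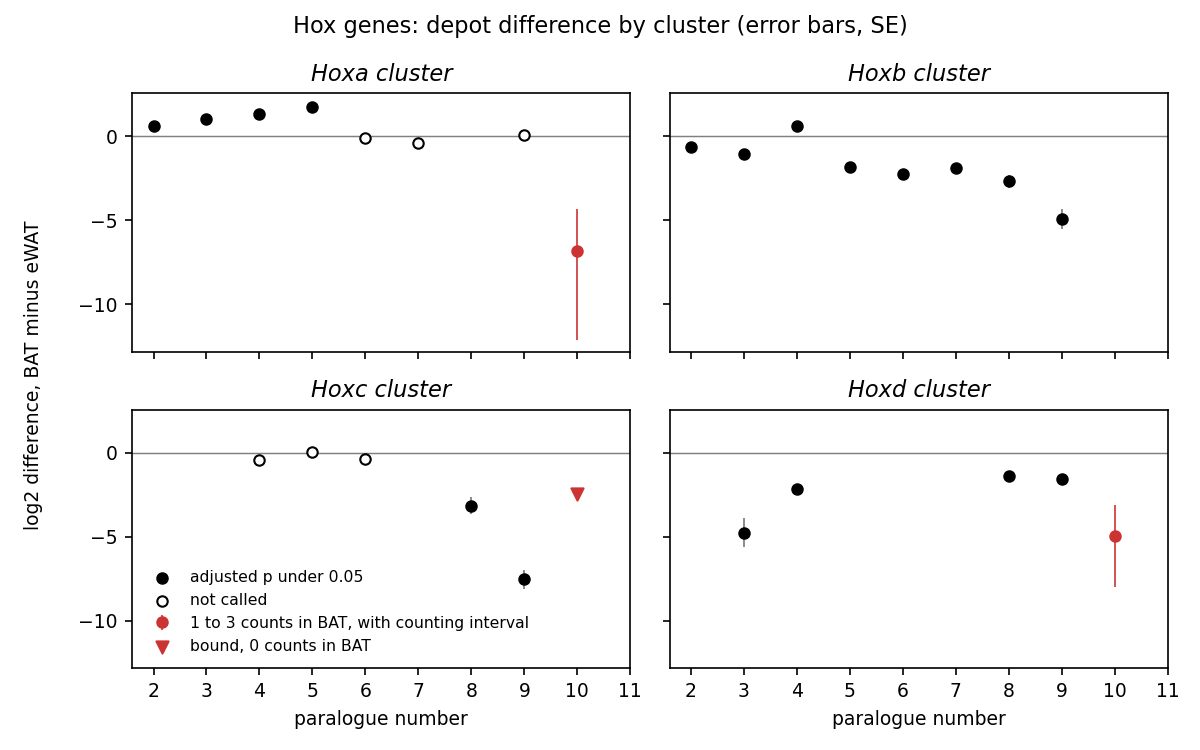
Difference of each tested Hox gene of number 2 or above between thermoneutral BAT and thermoneutral eWAT (log2, BAT minus eWAT) against its number in the cluster, 1 panel for each of the 4 clusters. Bars are standard errors, open circles did not pass the test, red circles have 1 to 3 counts in BAT and carry the counting interval, and the red triangle is a bound. Low numbers of the Hoxa cluster lie above 0, and numbers from 8 on lie below it in the Hoxb, Hoxc and Hoxd clusters.

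Mitochondrial genes formed the broadest block of higher expression in BAT. The respiratory chain passes electrons from NADH and succinate through complexes I to IV, and ATP synthase uses the resulting proton gradient. All 36 tested nuclear subunits of complex I were higher in BAT, with a median of 2.55, and all 14 of complexes II and III, with a median of 2.81. Of 17 subunits of cytochrome c oxidase 16 were higher, with a median of 2.80, and Cox6b2, a testis form, was not called (-0.45 ± 0.59, adjusted p = 0.513). It was highest in eWAT libraries 2 and 3 and stood at 1.15 ± 0.22 (adjusted p = 0.000985) without them. The 13 proteins encoded by mitochondrial DNA were all higher, with a median of 3.38. These medians stayed above 1 log2 unit with library totals, at 1.57 for complex I and 2.40 for the mitochondrially encoded genes. Complex I subunits summed to 11250, 11080, 12630, 11220 and 12410 CPM in BAT libraries 1 to 5, highest in 3 and 5, as the muscle markers were. The same held for the other nuclear lists of the chain, whereas the mitochondrially encoded genes were highest in libraries 5 and 2. Without BAT libraries 3 and 5 all 36 complex I subunits were higher, with a median of 2.48. The part of muscle tissue was not tested.

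Ndufs6, a subunit of the NADH-oxidising arm of complex I, had 171, 172, 184, 161 and 187 CPM in BAT, against 25.4, 28.3, 26.3, 29.7 and 29.3 CPM in eWAT (2.65 ± 0.07, adjusted p = 1.77e-09). Sdhd, a membrane anchor of succinate dehydrogenase, averaged 562 ± 21.5 CPM in BAT and 90 ± 6.13 CPM in eWAT (SD, n = 5 each; 2.64 ± 0.07), and Uqcrc1, a core subunit of complex III, differed by 3.25 ± 0.08. Cox5a of cytochrome c oxidase differed by 3.46 ± 0.10 and Cycs, the electron carrier cytochrome c, by 3.28 ± 0.10. None of these genes overlapped between the depots. ATP synthase was the exception among these complexes. Of 16 tested genes 13 were higher, with Atp5a1 at 2.57 ± 0.08 and Atp5l at 2.42 ± 0.08, but 3 were lower. Atp5g1 encodes the c subunit of the rotor, and its low expression is known to limit the amount of ATP synthase in rodent brown fat. It had 12, 7.07, 22.1, 9.3 and 18.7 CPM in BAT, against 30.1, 30, 28.6, 32.3 and 32.4 CPM in eWAT (-1.15 ± 0.28, adjusted p = 0.0038), lower in BAT without overlap, and among BAT libraries highest in 3 and 5, as the muscle markers were. A second c-subunit gene, Atp5g3, differed by -0.28 ± 0.11, adjusted p = 0.0397, with overlap between the depots. Another c-subunit gene, Atp5g2, went the other way and was higher in BAT, at 1.40. Atpif1, an inhibitor of the enzyme, differed by -0.98 ± 0.11, adjusted p = 1.28e-05.

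The promoters of 5 respiratory chain genes that were higher in BAT are shown beside that of Ucp1, since they carry the short motifs known for this gene class. They are the 250 bases before the annotated start, 5′ to 3′, from RefSeq on GRCm38.p6. The regions are chr8:83290098-83290347 on the plus strand (Ucp1), chr13:73328483-73328732 on the minus strand (Ndufs6), chr9:50603850-50604099 on the minus strand (Sdhd), chr6:50566570-50566819 on the minus strand (Cycs), chr9:44920743-44920992 on the minus strand (Atp5l) and chr16:37654369-37654618 on the minus strand (Ndufb4). Capitals mark any match, on either strand, to the TATA box TATAAA, the half-site AAGGTCA bound by the estrogen-related receptors (ERR), or GCGCNTGCG, the core of the site of nuclear respiratory factor 1 (NRF1).
Ucp1: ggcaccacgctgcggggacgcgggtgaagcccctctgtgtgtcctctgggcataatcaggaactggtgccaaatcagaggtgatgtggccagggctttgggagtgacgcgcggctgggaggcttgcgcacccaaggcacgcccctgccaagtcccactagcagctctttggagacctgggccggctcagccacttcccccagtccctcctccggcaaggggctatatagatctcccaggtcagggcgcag
Ndufs6: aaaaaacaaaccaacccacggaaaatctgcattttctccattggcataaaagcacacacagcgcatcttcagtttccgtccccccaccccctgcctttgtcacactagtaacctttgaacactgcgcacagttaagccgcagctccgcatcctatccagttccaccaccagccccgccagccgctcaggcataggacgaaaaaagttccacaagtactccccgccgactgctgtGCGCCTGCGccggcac
Sdhd: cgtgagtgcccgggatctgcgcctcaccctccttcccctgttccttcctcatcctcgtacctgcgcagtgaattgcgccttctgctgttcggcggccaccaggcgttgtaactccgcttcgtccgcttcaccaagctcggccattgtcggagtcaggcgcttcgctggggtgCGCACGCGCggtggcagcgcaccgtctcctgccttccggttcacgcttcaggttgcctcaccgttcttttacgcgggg
Cycs: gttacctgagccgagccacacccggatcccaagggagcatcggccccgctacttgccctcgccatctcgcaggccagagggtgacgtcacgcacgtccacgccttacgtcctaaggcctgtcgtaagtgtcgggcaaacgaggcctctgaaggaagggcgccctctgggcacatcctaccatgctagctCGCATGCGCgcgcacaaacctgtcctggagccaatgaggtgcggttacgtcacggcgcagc
Atp5l: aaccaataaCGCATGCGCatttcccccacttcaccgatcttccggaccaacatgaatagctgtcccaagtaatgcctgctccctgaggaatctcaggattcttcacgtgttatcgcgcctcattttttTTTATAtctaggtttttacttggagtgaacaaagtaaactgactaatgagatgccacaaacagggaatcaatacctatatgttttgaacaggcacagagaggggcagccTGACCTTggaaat
Ndufb4: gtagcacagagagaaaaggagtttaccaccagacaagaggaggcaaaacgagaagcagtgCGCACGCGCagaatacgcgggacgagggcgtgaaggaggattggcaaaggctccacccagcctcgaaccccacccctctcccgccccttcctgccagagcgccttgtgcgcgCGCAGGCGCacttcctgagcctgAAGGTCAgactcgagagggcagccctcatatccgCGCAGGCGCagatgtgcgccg

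The Ucp1 window held no exact match to the 3 motifs. Near its end it holds the letters tatata, which resemble the TATA box but do not match TATAAA. Ndufs6, Sdhd and Cycs held 1 NRF1 core each, and Atp5l held 1 match to each motif. Its match to TATAAA lay on the reverse strand, 122 to 117 bases before the start. Ndufb4, whose transcript differed by 2.56 ± 0.08, held 1 ERR half-site and 3 NRF1 cores. An NRF1 core stood in 17 of 69 promoters of tested respiratory chain genes (24.6%), in 5 of 19 of the tricarboxylic acid cycle (26.3%) and in 15 of 69 of mitochondrial ribosomal proteins (21.7%). Among all tested genes it stood in 1261 of 12404 (10.2%), among all 27025 promoters of that table in 5.4%, in 2 of 61 for cytosolic ribosomal proteins and in 0 of 21 for extracellular matrix genes. Among genes at least 2-fold higher in BAT it stood in 162 of 1546 (10.5%), close to the share of all tested genes, and among those at least 2-fold lower in 147 of 2936 (5.01%). The ERR half-site stood in 6 of 69 respiratory chain promoters (8.7%) and in 2.97% of all tested genes, and 2 of these 6, Atpif1 and Atp5g3, were lower in BAT. Atpif1 also held an NRF1 core. An exact TATAAA stood in 7.25% of respiratory chain promoters and 7.18% of all tested genes. Mean GC content was 56.4% in the respiratory chain promoters and 59.3% over all tested genes. The shares describe letters in these windows and were not tested.

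The translation machinery inside mitochondria went the same way. Of 78 tested mitochondrial ribosomal protein genes 76 were higher and 0 lower in BAT, with a median of 1.32, and with library totals 45 were higher and 9 lower. Mrps36, since recognised as a subunit that joins the oxoglutarate dehydrogenase complex, differed by 3.10 ± 0.11, and Mrpl34 of the large subunit by 2.89 ± 0.11. Cytosolic ribosomal proteins differed far less. Of 84 tested 51 were higher and 2 lower, with a median of 0.29, and with library totals the direction turned round, with 1 higher, 79 lower and a median of -0.70. Without the 4 libraries named above 26 were higher and 4 lower. Many of these genes have near-identical copies in the genome, so their counts are uncertain.

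Fuel oxidation in the mitochondrial matrix was higher in BAT for nearly all genes listed. Of 22 tested genes of the tricarboxylic acid cycle and pyruvate entry 21 were higher, with a median of 2.94, and only Pcx, pyruvate carboxylase, was not called (0.03 ± 0.19, adjusted p = 0.882). Suclg1, a subunit of succinyl-CoA ligase, had 904, 953, 947, 848 and 967 CPM in BAT, against 68.1, 71.9, 67.1, 78.8 and 69.2 CPM in eWAT (3.70 ± 0.08, adjusted p = 1.33e-09) and no overlap, and Ogdh, of oxoglutarate dehydrogenase, differed by 3.18 ± 0.08. Of 26 tested genes of fatty acid oxidation 23 were higher and 1 lower, with a median of 2.72. Acaa2, the thiolase of the last step, differed by 4.73 ± 0.11, Acadvl, the dehydrogenase of long chains, by 4.03 ± 0.09, and Slc25a20, the carnitine carrier, by 3.33 ± 0.10.

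Carnitine palmitoyltransferase, which admits long-chain fatty acids to mitochondria, differed in opposite directions for its 2 genes. Cpt1b, the muscle form, had 819, 842, 835, 720.1 and 753 CPM in BAT, against 2.18, 17, 20.6, 3.62 and 1.75 CPM in eWAT (6.46 ± 0.80, adjusted p = 4.76e-05). Cpt1a, the liver form, had 21.2, 18.4, 16, 20.2 and 16.5 CPM in BAT, against 84.3, 71.3, 68.6, 105 and 81.5 CPM in eWAT (-2.15 ± 0.13, adjusted p = 2.01e-07), the only gene of the oxidation list that was lower in BAT. In eWAT the highest Cpt1b values were in libraries 2 and 3, those with germ cell markers, and without these 2 libraries the difference was 8.32 ± 0.27. Peroxisomal Ehhadh was not called (0.58 ± 0.43, adjusted p = 0.246).

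Ratios of related genes within a library do not depend on the scaling, and all 10 pairs separated the depots without overlap at an offset of 0.5 counts. Among all single genes tested 54.2% did not overlap, and no such share was computed for ratios of other gene pairs. The log2 ratio of Cox7a1 to the widely expressed Cox7a2 was -0.44 ± 0.09 in BAT and -5.54 ± 0.60 in eWAT (SD, n = 5 each), and that of Cox8b to Cox8a -0.56 ± 0.12 in BAT and -7.18 ± 0.49 in eWAT. Each pair gave an exact two-sided permutation p of 0.00794, the smallest that 5 libraries against 5 allow, and 0.00794 after adjustment over the 10 pairs. For Cpt1b to Cpt1a the ratio was 5.43 ± 0.22 in BAT and -3.89 ± 1.84 in eWAT, so the sign of the log ratio changed between depots. Ratios were -1.08 ± 0.33 in BAT and -3.20 ± 0.39 in eWAT for the heart and muscle forms of lactate dehydrogenase, Ldhb to Ldha, and -4.23 ± 0.56 in BAT and -11.45 ± 1.10 in eWAT for the fatty acid carriers Fabp3 to Fabp4. For the droplet coats Plin5, found in oxidative tissue, to Plin1 they were -3.35 ± 0.16 in BAT and -7.88 ± 0.39 in eWAT. Ratios compare counts and not molecules, since genes differ in length, so only the change between depots is read.

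Among the remaining pairs the difference between depots, BAT minus eWAT, was 14.43 for Ucp1 to Ucp2, 2.51 for the hexokinases Hk2 to Hk1 and 3.50 for Cox6a2 to Cox6a1. It was -1.44 for Cox4i2 to Cox4i1, the lung form of this subunit being the relatively lower one in BAT. The value for Ucp1 to Ucp2 depends on an offset of 0.5 counts, since 1 eWAT library had no Ucp1 count, and was 13.11 with an offset of 5. With that offset Cox6a2 to Cox6a1 was 2.64 and the depots overlapped (exact permutation test, adjusted p = 0.0159). Cox6a2, a muscle form, had 4.12, 4.34, 32.4, 1.25 and 21.1 CPM in BAT libraries 1 to 5, highest in libraries 3 and 5, as the muscle markers were. Hk1 had 29.9, 169, 190.2, 33.5 and 32.5 CPM in eWAT libraries 1 to 5, highest in libraries 2 and 3, as the germ cell markers were. Among BAT libraries Cox7a1 and Fabp3 were also highest in 3 and 5. The part of these tissues in these ratios was not tested.

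**Figure D4:**
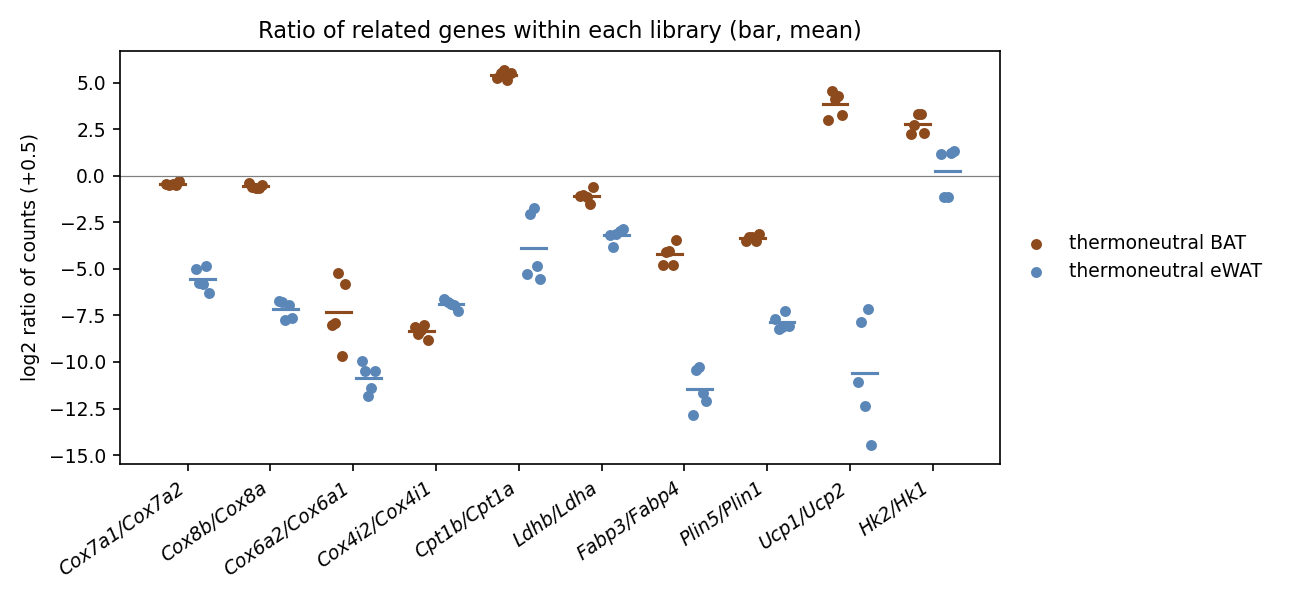
Log2 ratio of the counts of 2 related genes in each thermoneutral BAT and eWAT library (0.5 added to each count), with a bar for the mean of each depot, for 10 pairs. The depots do not overlap in any pair, and the ratio is lower in BAT for Cox4i2/Cox4i1 alone.

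Genes that make fatty acids were also higher in BAT, beside those that burn them. Of 19 tested genes of de novo lipogenesis 15 were higher and 2 lower, with a median of 1.71. Fasn, fatty acid synthase, had 19228, 15662, 20898, 29615 and 8259.8 CPM in BAT, against 6758, 7506, 4003, 5367 and 2292 CPM in eWAT (1.85 ± 0.38, adjusted p = 0.00142), without overlap. Mlxipl, which encodes the carbohydrate-response factor ChREBP, differed by 2.58 ± 0.19, Acacb, the mitochondrial form of acetyl-CoA carboxylase, by 3.41 ± 0.33, and Elovl6, an elongase, by 3.37 ± 0.38. The members that were lower in BAT are the desaturases of polyunsaturated chains, Fads1 (-1.73 ± 0.17, adjusted p = 6.7e-06) and Fads2 (-2.08 ± 0.33, adjusted p = 0.000277). Fads2 had 19.6, 14.7, 20.3, 24.1 and 16.3 CPM in BAT, against 87.4, 30.7, 81, 135 and 67.1 CPM in eWAT, without overlap, and in eWAT it was lowest in library 2 and highest in library 4, as the duct markers were. The part of duct tissue in this difference was not tested.

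Sugar use followed. Of 20 tested genes of glycolysis and glucose uptake 16 were higher and 2 lower, with a median of 2.05. Slc2a4, the insulin-responsive transporter GLUT4, had 522, 514, 685, 714 and 494 CPM in BAT, against 141, 172, 122, 119 and 152 CPM in eWAT (2.05 ± 0.15, adjusted p = 6.51e-07), whereas Slc2a1, the general transporter GLUT1, was lower (-0.73 ± 0.23), with overlap and with the same extremes in eWAT as Fads2. Ldhb differed by 3.28 ± 0.11 and the kinase Pgk1 by 2.52 ± 0.09. Breakdown of branched-chain amino acids was higher as well, in 19 of 21 tested genes with a median of 1.34, and with library totals 11 were higher and 6 lower. Auh, a hydratase of leucine breakdown, differed by 1.87 ± 0.08, and the single gene lower with TMM was Bcat1, the cytosolic transaminase (-3.61 ± 0.47).

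Handling of stored and circulating fat was mixed, in contrast to oxidation. Of 19 tested genes of lipolysis and lipid droplets 12 were higher and 4 lower, with a median of 1.16. Plin5 differed by 4.40 ± 0.18 and Plin3 by 1.36 ± 0.08, while Cidec, a protein of large unilocular droplets in mice, differed by -1.56 ± 0.15, Plin4 by -1.30 ± 0.22 and Mgll, monoglyceride lipase, by -0.51 ± 0.09. Of 17 tested genes of triglyceride synthesis 7 were higher and 5 lower, with a median of 0.22 (-0.76 with library totals). Gpd1, which makes the glycerol backbone, differed by 2.76 ± 0.28, and the acyltransferases Gpat3 and Mogat2 by -3.0 ± 0.23 and -3.22 ± 0.46. Of 20 tested genes of lipoprotein and fatty acid uptake 10 were higher and 6 lower, with a median of 0.27 (-0.72 with library totals). Lpl, lipoprotein lipase, had 3485, 3308, 2931, 3155 and 3458 CPM in BAT, against 8029, 9277, 7779, 8453 and 6845 CPM in eWAT (-1.31 ± 0.11, adjusted p = 1.91e-06), lower in BAT without overlap, while Vldlr, a lipoprotein receptor, differed by 1.92 ± 0.13 and Fabp3 by 7.29 ± 0.58.

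**Figure D5:**
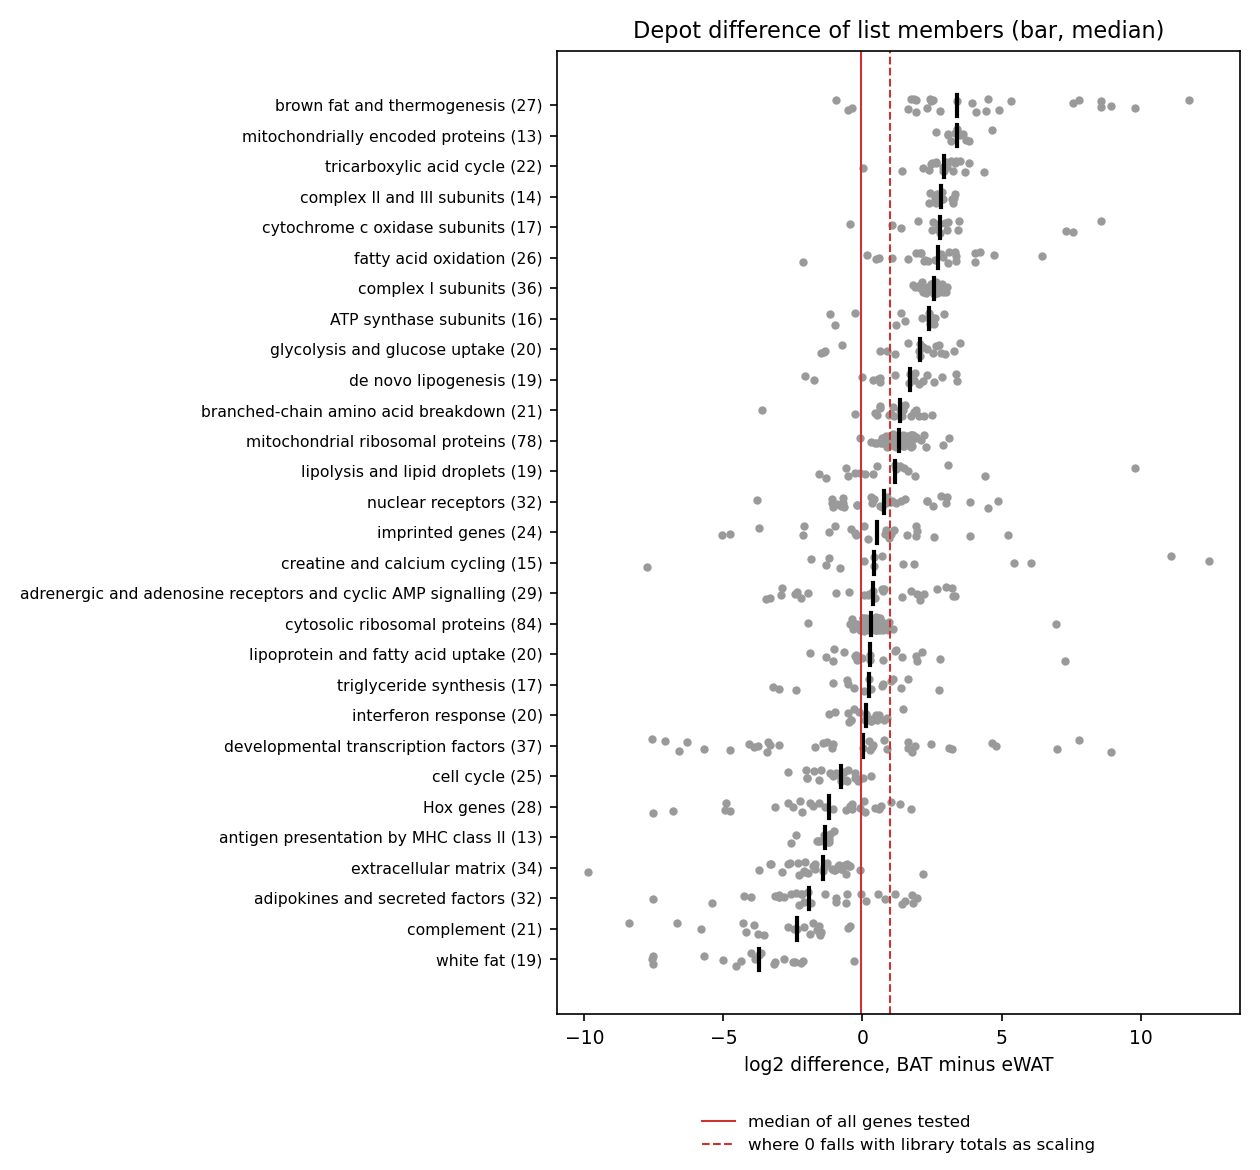
Log2 difference (thermoneutral BAT minus thermoneutral eWAT) of each tested member of the gene lists, with the number tested in brackets and a black bar at the median. The red line is the median of all genes tested and the dashed line marks where 0 falls with library totals as the scaling, and the lists of mitochondrial genes lie to the right of both.

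Signalling genes changed member by member. Noradrenaline released by sympathetic nerves acts through β receptors, the stimulatory G protein and adenylyl cyclase, and α2 receptors oppose it. Of 29 tested genes of this list 16 were higher and 9 lower in BAT, with a median of 0.39 (-0.60 with library totals). The α1 receptors Adra1a and Adra1d were higher (3.33 ± 0.20 and 2.23 ± 0.14), and Adra1b was lower (-3.32 ± 0.40). The inhibitory receptor Adra2a had 0.324, 0.158, 0.102, 0.122 and 0.113 CPM in BAT, against 0.643, 1.48, 1.37, 1.5 and 1.34 CPM in eWAT (-2.94 ± 0.38, adjusted p = 4.72e-05), and the adenosine receptor Adora2b differed by -3.47 ± 0.40. Among the cyclases Adcy3 was higher (2.68 ± 0.12) and Adcy5 lower (-2.90 ± 0.39), and the catalytic subunit Prkaca of protein kinase A was higher (1.42 ± 0.08).

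Nuclear receptors split likewise, with 20 of 32 tested genes higher, 8 lower and a median of 0.77 (-0.23 with library totals). Ppara, the receptor that drives fatty acid oxidation, had 112, 192, 182, 145 and 220.2 CPM in BAT, against 6.61, 6.11, 6.73, 10.5 and 7.2 CPM in eWAT (4.52 ± 0.23, adjusted p = 6.79e-08), without overlap. Nr2f2, a factor of the COUP family, was lower in BAT (-1.09 ± 0.13, adjusted p = 3.56e-05). In the list of creatine and calcium cycling, which other work links to heat production without Ucp1, 7 of 15 tested genes were higher and 5 lower, with a median of 0.42 (-0.58 with library totals). Alpl, a phosphatase, differed by 1.86 ± 0.17, and Ckb, the brain form of creatine kinase, by -1.86 ± 0.38. Ckb had 37.2, 35.3, 32.3, 24.6 and 53.6 CPM in BAT, against 153, 39.9, 129, 218 and 122 CPM in eWAT, so that eWAT library 2, the poorest in duct markers, lay within the range of BAT, and library 4, the richest, was highest. The part of duct tissue was not tested. The calcium pump Atp2a1 and the kinase Ckm of that list are also muscle genes, and Atp2a1 had 256, 179, 1334, 41.5 and 863 CPM in BAT libraries 1 to 5, which follows the muscle markers.

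Genes of the tissue around the adipocytes were lower in BAT for matrix, complement, macrophages and antigen presentation. Of 34 tested extracellular matrix genes 31 were lower and 1 higher, with a median of -1.41. Fn1, fibronectin, had 31, 23.2, 26, 25.9 and 18.8 CPM in BAT, against 372, 376, 273, 274 and 371 CPM in eWAT (-3.74 ± 0.16, adjusted p = 1.79e-08), and Fbn1, fibrillin of elastic fibres, differed by -2.29 ± 0.11. Only the fibril-associated collagen Col12a1 was higher (2.17 ± 0.24, adjusted p = 1.74e-05). Of 21 tested complement genes 19 were lower and 0 higher, with a median of -2.34. C7, a component of the membrane attack complex, had 3.33, 2.57, 2.45, 2.17 and 1.8 CPM in BAT, against 135, 82.7, 146, 163 and 173 CPM in eWAT (-5.82 ± 0.25, adjusted p = 2.09e-08), and Cfd, adipsin, which adipocytes secrete and which starts the alternative pathway, differed by -2.12 ± 0.26, adjusted p = 3.33e-05. C3 and C4a were not called (-0.44 ± 0.25, adjusted p = 0.133 and -0.53 ± 0.36, adjusted p = 0.209).

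All 13 tested genes of antigen presentation by MHC class II were lower in BAT, with a median of -1.36. H2-Ab1 had 89.4, 64.8, 73.8, 61.4 and 57 CPM in BAT, against 205, 149, 149, 158 and 167 CPM in eWAT (-1.26 ± 0.14, adjusted p = 1.32e-05). Of 14 macrophage markers 13 were lower and 0 higher, and they summed to 231, 188, 213, 165 and 182 CPM in BAT, against 881, 685, 549.6, 592 and 795 CPM in eWAT, which do not overlap. Of 9 tested B cell markers 6 were lower and of 4 lymph node stroma markers 3, against 36.1% lower over all genes. Of 10 T cell markers 2 were lower (median -0.35), below that share, and of 5 neutrophil markers 2 were, near it. None was higher in any of these lists. Fewer interferon response genes were called than the 68.2% over all genes, with 4 of 20 tested genes higher and 3 lower, a median of 0.14 (-0.85 with library totals) and 0 genes without overlap, and without the 4 libraries 2 were higher and 0 lower.

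Other cell types of the tissue went the other way or were split. Of 14 endothelial markers 9 were higher and 1 lower in BAT, with a median of 0.54 that became -0.44 with library totals, and they summed to 1578 to 1770 CPM in BAT and 939 to 1275 CPM in eWAT. Of 10 Schwann cell and nerve markers 7 were higher and 3 lower, and of 8 erythroid markers 7 were higher and 0 lower (0 higher with library totals). Smooth muscle and pericyte markers had 4 of 10 higher and 5 lower, and adipocyte progenitor markers 3 of 13 higher and 8 lower. Hepatocyte genes were lower in 9 of 12 tested members and, without the 4 libraries, in 1.

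Cell cycle genes were lower in 19 of 25 tested members and higher in 1, with a median of -0.77. Without the 4 libraries, which leaves 3 for each depot, 5 were lower and the median was -0.35. Mcm6, a subunit of the replicative helicase, had 8.82, 6.73, 6.02, 6.25 and 5.55 CPM in BAT, against 15.3, 10, 13.7, 16.3 and 14.3 CPM in eWAT (-1.06 ± 0.16, adjusted p = 0.000155). Imprinted genes, which are read from 1 parental copy, were split, with 12 of 24 tested higher and 7 lower and a median of 0.51 (-0.49 with library totals). Plagl1, a zinc finger factor, differed by -5.06 ± 0.21, Grb10, an inhibitor of insulin signalling, by -1.21 ± 0.09, and Mest, a marker of adipocyte enlargement in mice, by -3.71 ± 0.39, adjusted p = 1.44e-05. Igf2, an imprinted growth factor, differed by 0.82 ± 0.13.

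The largest differences of single genes were mostly not those of adipocytes. Among the 10 higher genes of largest difference with at least 10 CPM and no overlap, Myh4, Atp2a1, Xirp2, Ckm, Pvalb, Tnnt3 and Tcap are genes of skeletal muscle, and the other 3 were Ucp1, Cidea and the brown fat long noncoding RNA Lncbate10, which was 1570-fold higher in BAT, with a counting interval of 537 to 7610. Myh4, a fast myosin, had 389, 321, 1829, 72.4 and 999 CPM in BAT libraries 1 to 5, against 0.0134, 0.472, 0.013, 0 and 0 CPM in eWAT libraries 1 to 5, highest in libraries 3 and 5 of BAT. Among the 10 lower genes, Dnah5, Cfap44, Ccdc153 and Rgs22 belong to motile cilia or sperm, and Lrp2, Cdh16 and Cldn2 to absorptive or ductal epithelium. Lrp2, the endocytic receptor megalin, had 0 counts in BAT, against 142, 5.97, 138, 322 and 103 CPM in eWAT, and was at least 2110-fold lower. Cdh16, a cadherin of kidney and duct epithelium, was at least 650-fold lower. Its values in eWAT, 46.1, 0.58, 44.8, 86.8 and 41.2 CPM, were lowest in library 2, as were the duct markers, and the test of limma-voom did not call it.

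By the size of the difference in mean level, a transcript of the mitochondrial genome came first on the higher side, and such transcripts are left out of the ranking that follows. Scd1, a desaturase that makes monounsaturated fatty acids, had 12649, 31198, 54953, 67850 and 35994 CPM in BAT, against 14371, 14836, 11191, 13002 and 9787 CPM in eWAT (1.68 ± 0.37, adjusted p = 0.00226), with overlap between the depots, and Fasn was also among the 8 largest that remain. With them stood a ribosomal RNA gene, Rn18s-rs5, and Gm10925, Gm28437, Gm28661 and Gm29216, which are pseudogenes of near-identical sequence to the mitochondrial genome, so that their counts are uncertain. The 8 largest on the lower side were Car3, Gsn, Lpl, Cfd, Trf, Plin4, Cyp2e1 and Apoe. Car3, a carbonic anhydrase of adipocytes, had 5047, 3697, 4064, 3583 and 3723 CPM in BAT, against 11432, 12992, 11091, 10903 and 15594 CPM in eWAT (-1.62 ± 0.15, adjusted p = 3.39e-06). Gsn, the actin-severing protein gelsolin, had 1028, 599, 570.4, 837 and 587 CPM in BAT, against 5695, 6399, 6166, 4999.9 and 8043 CPM in eWAT (-3.11 ± 0.21, adjusted p = 4.46e-07). Trf, the iron carrier transferrin, differed by -3.95 ± 0.39, and Apoe, an apolipoprotein, by -1.05 ± 0.15. These are levels of 1 gene across depots, and levels of different genes are not compared here.

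The depot difference of many genes was not the same in the cold. In a model of 20 libraries, the interaction of depot and exposure passed the test for 6091 of 19637 genes (31%), with 3351 in which BAT minus eWAT was higher in the cold and 2740 in which it was lower. Of the 6347 genes called with at least 2-fold at thermoneutrality, 5482 were called in the same direction in the cold, 153 in the opposite direction and 712 not at all. By the test of the interaction 833 of these genes had a wider difference in the cold, and for 879 the change ran against the thermoneutral difference. The 879 take in genes that crossed 0, such as Nnmt, Lpl and Strip2, as well as those with a narrower difference.

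Genes of thermogenesis were among those with a wider difference. Ucp1 differed between depots by 16.41 ± 0.97 in the cold, against 11.74 ± 0.85 at thermoneutrality, a change of 4.67 ± 0.97 (adjusted p = 0.00112). It averaged 17194 ± 1987 CPM in cold BAT and 0.196 ± 0.175 CPM in cold eWAT (SD, n = 5 each), so the eWAT libraries stayed near 0 in both exposures. Dio2 differed by 8.20 ± 0.71 in the cold, against 3.95 ± 0.61 at thermoneutrality, a change of 4.24 ± 0.79. Ppargc1a differed by 4.54 ± 0.32 in the cold, against 1.74 ± 0.28 at thermoneutrality (adjusted p = 2.81e-05). Gk, which was not called at thermoneutrality, differed by 5.56 ± 0.42 in the cold, a change of 6.07 ± 0.53 (adjusted p = 1.31e-07), and averaged 1503 ± 126 CPM in cold BAT and 31.9 ± 6.79 CPM in cold eWAT. These 4 genes include 3 that were already apart at thermoneutrality and 1 that was not. Other genes changed direction. Nnmt stood at 1.26 ± 0.18 in the cold, against -3.64 ± 0.20 at thermoneutrality (adjusted p = 8.5e-10), and averaged 198 ± 52.6 CPM in cold BAT and 82.5 ± 17.4 CPM in cold eWAT. Lpl stood at 1.67 ± 0.15 in the cold, against -1.31 ± 0.15 at thermoneutrality (adjusted p = 1.73e-08), and averaged 18180 ± 2176 CPM in cold BAT and 5701 ± 1365 CPM in cold eWAT. Cpt1a stood at 0.73 ± 0.15 in the cold, against -2.15 ± 0.15 at thermoneutrality (adjusted p = 2e-08). For Lep the difference was -6.21 ± 0.38 in the cold, against -2.83 ± 0.32 at thermoneutrality (adjusted p = 1.23e-05), wider below 0 in the cold.

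Further genes of smallest p in this test were Adcy3, at 6.44 ± 0.17 in the cold, against 2.67 ± 0.14 at thermoneutrality, and Frrs1, a ferric reductase, at 1.95 ± 0.11 in the cold, against -0.64 ± 0.11 at thermoneutrality on the side that was higher in the cold. On the side that was lower in the cold were Strip2, at -3.18 ± 0.23 in the cold, against 1.14 ± 0.20 at thermoneutrality, Impdh1, an enzyme of guanine nucleotide synthesis, at 1.22 ± 0.16 in the cold, against 4.45 ± 0.19 at thermoneutrality, and Ntrk3, a neurotrophin receptor, at 1.10 ± 0.27 in the cold, against 6.17 ± 0.33 at thermoneutrality. Ntrk3 averaged 9.53 ± 4.83 CPM in cold BAT and 4.44 ± 0.838 CPM in cold eWAT. For Agt the difference was -6.18 ± 0.37 in the cold, against -7.55 ± 0.40 at thermoneutrality, a change of 1.37 ± 0.45 (adjusted p = 0.0255), so it remained strongly lower in BAT in both exposures.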

How the data were processed

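RNA of 10 thermoneutral libraries, 5 of BAT and 5 of eWAT, and of the 10 cold libraries of the same depots was analysed. The values are expected counts per gene symbol, deposited by the authors without normalization and already whole numbers. Per the submitters' processing notes FastQC, STAR 2.7.8a, RSEM 1.3.0 and DESeq were used with the builds GRCm39 and GRCm38, with no role given for either, and the annotation and strand setting are not given in the sources used here. Per the labels' protocols libraries were made with a TruSeq RNA v2 kit, an unstranded kit, so reads of overlapping and antisense genes cannot be told apart. The deposited count table held 260093 lines for 53863 symbols, and 78 symbols shared by several genes stood in several lines and were reduced to the sum over their genes (0.242% to 0.518% of the counts of a library). It left 0 columns without a sample. Groups were taken from the labels.

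Counts were tested in R 4.3.3 with edgeR 4.0.16 (robust quasi-likelihood F-test, two-sided) after TMM scaling and filterByExpr (minimum count 10, minimum total 15), on the 10 thermoneutral libraries, and for the interaction with cold on 20. Genes with a Benjamini-Hochberg adjusted p under 0.05 are those called. CPM use TMM-scaled library sizes. A gene with 0 counts in a depot is given as a bound against a floor of 3 counts per library, and one with 1 to 3 counts as a ratio with its 95% counting interval. Intervals and floors cover counting error only. Ratios of gene pairs were compared by an exact permutation test. Alternatives were other scalings, filters, tools (DESeq2 1.42.0, limma 3.58.1 with voom), the 40 libraries, a replicate block and leaving out libraries. The procedure was run on simulated data in which few genes changed, balanced in direction, so the scaling was not tested under differences as broad as those found here. Promoters were taken by symbol, the first RefSeq entry of a gene on GRCm38.p6, and 12404 of 17148 tested genes matched.

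Genes named are the 10 higher and 10 lower of largest difference (at least 10 CPM, no overlap, no predicted genes), the 8 higher and 8 lower of largest difference in mean CPM (without transcripts of the mitochondrial genome), the members of smallest p in each list (at most 5), the most abundant marker, 30 genes of interest, the gene pairs and the 5 of smallest interaction p in each direction. Others, among them members that went against their list and most Hox genes, were chosen after their values were seen. Some genes that these rules name are not reported here. Members and lists were chosen with earlier results of these data known.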

Additional observations from a re-analysis of the deposited data

Results flagged for a closer look

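Of 380 groups of 5 libraries checked, 23 held a library far from the other 4 (6.05%), and chance flags about 1 in 20. Adipocyte and lipid genes were among them. BAT library 5, the second in muscle markers, had Gpd1 at 3056 CPM, against 5421 to 5679 CPM in the other 4 libraries. Its adipocyte markers summed to 24360 CPM, against 27920 to 28470 CPM in the other 4 libraries. BAT library 3, the highest in muscle markers, had Gpd1 at 5421 CPM and an adipocyte sum of 28300 CPM. In BAT library 4, the lowest in muscle markers, Trf had 265 CPM, against 78.6 to 127 CPM in the other 4 libraries. Igf2 had 23.2 CPM in BAT library 3 (others 16.4 to 18.1 CPM). In eWAT, Plin3 had 61.1 CPM in eWAT library 4 (others 53.4 to 54.2 CPM), Ppara 10.5 CPM in eWAT library 4 (others 6.12 to 7.2 CPM) and Atp5l 84.5 CPM in eWAT library 3 (others 92.2 to 95.2 CPM).

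Factors of position and signalling showed single libraries apart as well. Hoxb8 had 1.48 CPM in BAT library 1 (others 2.06 to 2.25 CPM), Hoxa10 0.0282 CPM in BAT library 5 (0 in the others) and Hoxa5 8.33 CPM in eWAT library 2 (others 10.6 to 11.5 CPM). Ebf3 had 17.1 CPM in eWAT library 2 (others 14.6 to 15 CPM) and Osr1 36.1 CPM in eWAT library 5 (others 20.3 to 24.1 CPM). Adra2a had 0.324 CPM in BAT library 1 (others 0.102 to 0.158 CPM) and 0.643 CPM in eWAT library 1 (others 1.34 to 1.5 CPM).

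Other tissues and cell types were uneven in single libraries. T cell markers summed to 22.5 CPM in BAT library 5 (others 7.86 to 10.5 CPM). Neutrophil markers summed to 8.03 CPM in BAT library 1 (others 1.83 to 3.12 CPM) and 12.6 CPM in eWAT library 1 (others 3.01 to 4.2 CPM). Smooth muscle markers summed to 401 CPM in eWAT library 4 (others 463 to 487 CPM). Seminal vesicle genes summed to 0.307 CPM in BAT library 3 (0 in the others) and 1186 CPM in eWAT library 2 (others 0.477 to 95.6 CPM). The muscle genes Atp2a1 and Myh4 had 0.23 CPM in eWAT library 2 (others 0.0268 to 0.0822 CPM) and 0.472 CPM in eWAT library 2 (others 0 to 0.0134 CPM), and the duct gene Cldn2 had 0.0197 CPM in BAT library 2 (0 in the others).

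The depot difference changed with cold for the genes below, each tested as an interaction in edgeR. BAT minus eWAT was higher in the cold by 4.67 ± 0.97 for Ucp1, 6.07 ± 0.53 for Gk, 4.90 ± 0.26 for Nnmt, 4.24 ± 0.79 for Dio2 and 3.77 ± 0.19 for Adcy3. It was higher by 2.98 ± 0.21 for Lpl, 2.89 ± 0.21 for Cpt1a, 2.80 ± 0.40 for Ppargc1a, 2.60 ± 0.15 for Frrs1 and 1.37 ± 0.45 for Agt. The change was -5.07 ± 0.40 for Ntrk3, -4.31 ± 0.30 for Strip2, -3.38 ± 0.44 for Lep and -3.24 ± 0.23 for Impdh1, lower in the cold.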

How the results depend on the processing

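Of 3784 comparisons of 172 named genes with 22 alternatives, 3669 kept direction and side of the threshold, 66 lost the call, 27 gained one and 22 changed sign. With library totals 1470 genes were higher and 13213 lower in BAT (786 and 8717 at 2-fold), and the sign changed for Ehhadh (-0.38), Fabp4 (-0.71), Hoxa2 (-0.34), Hoxb4 (-0.38), Hoxc5 (-0.93), Igf2 (-0.17), Pcx (-0.94), Pparg (-0.11) and Rn18s-rs5 (-0.13), since this scaling moved the median of all genes. With all 40 libraries 6149 genes were at least 2-fold lower among 20756 tested, and Pcx stood at -0.0047. Leaving out 1 library in turn, the lowest and highest values over these fits were -0.084 and 0.21 for Pcx, -0.025 and 0.16 for Hoxc5 and -0.68 and 0.12 for Cox6b2, which stood at 0.11 in limma-voom and 0.091 with the replicate block. These 3 genes were not called by the test reported. Alternatives added after seeing the data turned Hk1 to 0.12 without eWAT libraries 2 and 3 and to 0.27 without 4 libraries, C4a to 0.12 without 4 libraries, and Cox6b2 to 1.15 and 1.10. At this depth 0 counts in a depot only bound a difference. Hk1 and Cox6b2 were highest in eWAT libraries 2 and 3, and for C4a the cause was not tested.

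Leaving out each library in turn gave 5288 to 5521 genes higher and 5981 to 6479 lower in BAT, 2272 to 2417 and 4025 to 4613 at 2-fold, and for the interaction 2666 to 3321 higher and 2517 to 3417 lower in the cold. The values do not settle whether libraries with equal replicate numbers came from 1 mouse, since weak correlations cannot exclude it. Deviations from the depot means correlated between equal numbers at 0.0676, 0.022, 0.0871, 0.0491 and 0.185, and 2 of 5 BAT libraries correlated best with their own number. With the replicate block 5322 genes were higher and 5861 lower, and 3257 and 2598 in the interaction. For the gene pairs the replicate block permits no p under 0.0625, so none passed, with differences of 5.11 for Cox7a1/Cox7a2, 6.62 for Cox8b/Cox8a, 3.50 for Cox6a2/Cox6a1, -1.44 for Cox4i2/Cox4i1, 9.32 for Cpt1b/Cpt1a, 2.12 for Ldhb/Ldha, 7.23 for Fabp3/Fabp4, 4.53 for Plin5/Plin1, 14.43 for Ucp1/Ucp2 and 2.51 for Hk2/Hk1.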
